A study of Mus musculus with 14 samples.

Results

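S100 proteins are small calcium-binding proteins of vertebrates. They have no enzyme activity of their own: most form dimers that open a binding surface when calcium fills their EF-hand loops, and they act through the proteins they then bind, among them annexins, myosin heavy chains and ubiquitin ligase adaptors. Most S100 genes lie in a cluster, in mouse on chromosome 3, where several are known from epidermis, fibroblasts and muscle.

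The S100 family was followed here in mouse embryonic stem cells (ESCs) with and without the long noncoding RNA Trincr1, in 2 media. Its 7 members, S100a1, S100a4, S100a6, S100a10, S100a11, S100a13 and S100a16, were found by gene symbol among the 41204 genes of the RNA-seq table. They were chosen by their measured levels in these same 8 samples, so the differences between groups are given as a description, with no p-values for the members, and the counts of members past a threshold support nothing. The table lists 17 S100 family genes in all.

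The samples were wild-type ESCs and Trincr1-/- ESCs in 2i + LIF and in PD + LIF, with 2 samples in each of the 4 groups, listed by strain as C57BL/6(F) x 129/sv(M). Trincr1-/- ESCs carry a CRISPR/Cas9 deletion made with guides on both sides of exons 2 to 4 of Trincr1, and the clone sequenced is not named in the sources used here. Loss of Trincr1 and other differences between the cell lines or clones therefore cannot be told apart, and "genotype" below covers both. All groups received 1 µM of the MEK inhibitor PD0325901 and 1000 units per ml of leukemia inhibitory factor (LIF). In 2i + LIF the medium also held 3 µM of the GSK3 inhibitor CHIR99021, and the PD + LIF groups were kept for 24 hours in 2i + LIF and then for 4 days without CHIR99021, so withdrawal of the GSK3 inhibitor and time in culture cannot be told apart. Poly(A) RNA was sequenced, and each value is in FPKM, fragments per kilobase of transcript scaled to the depth of the library, which allows levels of different genes to be compared. A second experiment, without replicate values, measured RNAs pulled down with FLAG-tagged TRIM71.

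The estimated depth was 10.2 to 13.9 M fragments per sample. The deleted gene, listed as Gm2694, was at 5.70 to 9.45 FPKM in the 4 wild-type samples and at 0 to 1.38 FPKM in the 4 Trincr1-/- samples, and the 2 Trincr1-/- samples in PD + LIF were at 1.38 and 0.746 FPKM. The 8 pluripotency markers (Pou5f1, Nanog and others) were at 13.1 FPKM or more in every sample. Their sum was 3413 to 3680 FPKM over the 4 samples in 2i + LIF. With PD + LIF it was lower, 2713 to 3060 FPKM for wild-type samples and 1734 to 1971 FPKM without Trincr1. Dppa5a weighed most in this sum, with PD + LIF means of 1753 FPKM (wild type) and 922 FPKM (Trincr1-/-). Between media in wild-type ESCs, limma called 6 of the 8 lower, Sox2 higher (146 to 179 FPKM) and Dppa5a neither way. Between genotypes in PD + LIF, limma called 6 lower, while Klf4 was at 34.3 FPKM without Trincr1 against 29.4 FPKM (not called). Fibroblast markers, which include Col1a1 and Thy1, summed to 1.17 to 2.30 FPKM in 2i + LIF, 4.96 to 5.15 FPKM in wild-type and 6.80 to 7.66 FPKM in Trincr1-/- ESCs in PD + LIF. The 6 endoderm markers, among them Foxa2 and Gata4, summed to 0.965 to 1.81 FPKM in 2i + LIF, 4.50 to 5.28 FPKM in wild-type and 6.50 to 6.94 FPKM in Trincr1-/- ESCs in PD + LIF. The 4 markers of stratified epithelium summed to at most 0.171 FPKM, and the leukocyte gene Ptprc was at 0 in every sample. In such bulk samples, a change in every cell and a change in a few cells cannot be told apart.

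The members lie in 2 groups on chromosome 3 (GRCm38). S100a1 (chr3:90511034-90514392), S100a13 (chr3:90514435-90524581), S100a16 (chr3:90537254-90543151), S100a4 (chr3:90603770-90606045) and S100a6 (chr3:90612894-90614414) follow each other in this order. S100a11 (chr3:93520488-93526287) and S100a10 (chr3:93555080-93564643) lie 2906 kb further on, with 28.8 kb between them. S100a1 and S100a13 are read in opposite directions from neighboring starts, with 42 bases between the genes in the table.

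RefSeq promoter windows of GRCm38.p6, from 250 bases before to 50 bases after a start, held 6 of the 7 members, and S100a10 has no entry. The first window, that of S100a13, is shown because it holds the starts of both S100a1 and S100a13. The window of S100a1 overlaps it by 204 bases. It is read in the direction of S100a13, and the capitals mark the 104 bases between the start of S100a1 (position 90514330, minus strand) and that of S100a13 (position 90514435, plus strand). The other windows are those of S100a6, the member furthest apart between media in Trincr1-/- ESCs, and of S100a11, the most abundant and steadiest member, with the searched motifs in capitals.
S100a13, chr3:90514185-90514484, plus strand: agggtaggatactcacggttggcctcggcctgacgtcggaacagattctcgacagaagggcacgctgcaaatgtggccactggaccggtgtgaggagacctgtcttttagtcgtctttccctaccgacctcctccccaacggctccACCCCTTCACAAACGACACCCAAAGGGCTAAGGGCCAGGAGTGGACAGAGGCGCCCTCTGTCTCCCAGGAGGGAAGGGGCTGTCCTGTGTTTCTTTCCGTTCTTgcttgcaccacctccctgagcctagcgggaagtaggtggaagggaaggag
S100a6, chr3:90612644-90612943, plus strand: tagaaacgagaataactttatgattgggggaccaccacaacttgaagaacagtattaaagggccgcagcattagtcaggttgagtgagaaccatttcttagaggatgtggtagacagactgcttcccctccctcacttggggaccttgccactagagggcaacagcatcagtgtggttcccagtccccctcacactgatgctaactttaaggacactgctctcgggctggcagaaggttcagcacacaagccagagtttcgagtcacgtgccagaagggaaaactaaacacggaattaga
S100a11, chr3:93520246-93520545, plus strand: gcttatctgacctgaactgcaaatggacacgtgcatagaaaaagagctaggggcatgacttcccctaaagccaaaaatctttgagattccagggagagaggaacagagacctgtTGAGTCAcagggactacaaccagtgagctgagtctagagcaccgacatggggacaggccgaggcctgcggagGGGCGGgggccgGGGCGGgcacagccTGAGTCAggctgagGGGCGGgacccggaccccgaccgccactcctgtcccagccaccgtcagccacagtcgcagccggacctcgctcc

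The bases between both starts were 58.7% G or C. Windows were searched on both strands for the TATA box TATAAA, the GC box GGGCGG, the TCF/LEF words CTTTGAT and CTTTGAA, which share all letters but the last, and the AP-1 word TGAGTCA (its complement read 5′ to 3′ counted too). These words do not overlap each other where found. None of the 5 was found in the window of S100a1, S100a13 or S100a6. The S100a11 window held GGGCGG at 3 places, beginning at -64, -52 and -24 from the start, and TGAGTCA at -136 and -38. Of the 2 windows of S100a16, that further downstream held GGGCGG at -30, and the S100a4 window held TATAAA at -31. Of all 32851 RefSeq windows of this length, 13.6% held TATAAA, 35.7% GGGCGG, 3.73% CTTTGAT, 5.14% CTTTGAA and 5.20% TGAGTCA.

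The members covered a wide range of levels. In wild-type ESCs in 2i + LIF, S100a11, a nuclear and cytoplasmic calcium sensor that binds annexins A1 and A2, was at 218 and 211 FPKM in the 2 samples. S100a10, which has lost the ability to bind calcium and forms a heterotetramer with annexin A2, followed at 62.9 and 61.5 FPKM. S100a13, a partner in the non-classical release of FGF1, was at 3.49 and 3.86 FPKM, and S100a1, best known from the calcium handling of heart muscle, at 2.70 and 3.27 FPKM. S100a6, also called calcyclin, was at 3.29 and 1.66 FPKM, so that the samples of S100a1 and S100a6 overlapped. S100a16 was at 0.454 and 0.469 FPKM.

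S100a4, which is known from motile and mesenchymal cells and binds non-muscle myosin, was at or near 0. It was at 0 in 5 of the 8 samples, at 0.301 FPKM in a wild-type sample in 2i + LIF and at 0.305 and 0.540 FPKM in the Trincr1-/- samples in PD + LIF. These values correspond to an estimated 1.01, 0.982 and 1.98 fragments. With a mean of 0.143 FPKM it was below the filter of 0.2 FPKM, and the differences below cover the other 6 members. When no filter was used, S100a4 was called higher in PD + LIF in Trincr1-/- ESCs, a call that rests on these 0.982 and 1.98 fragments against 0, and it was not called in the other comparisons.

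**Figure D1:**
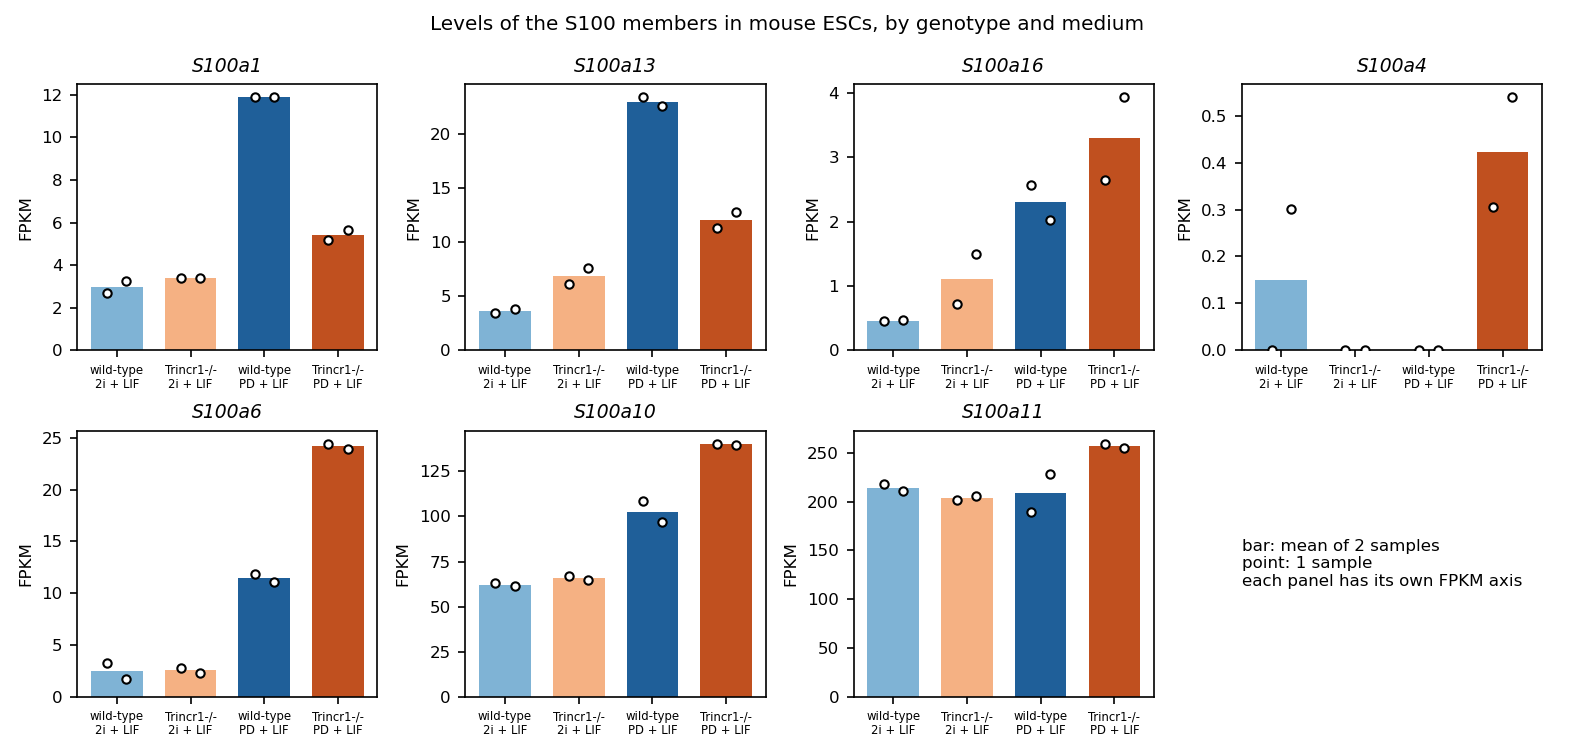
FPKM (vertical axis, a separate scale in each panel) of the 7 S100 members in the 4 groups of ESCs; a bar is the mean of 2 samples and each point is 1 sample. S100a1 and S100a13 were highest in wild-type ESCs in PD + LIF, at 11.9 and 23.0 FPKM on average, whereas S100a6, S100a10 and S100a11 were highest in Trincr1-/- ESCs in PD + LIF, at 24.2, 140.2 and 257 FPKM.

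The first comparison asked how the family differed between media in wild-type ESCs. S100a13 was at 23.4 and 22.6 FPKM in PD + LIF, which is 6.27 times its mean in 2i + LIF (a difference of 2.36 on the log2(FPKM + 1) scale, SE 0.12). S100a1 was at 11.9 FPKM in both samples, 3.98 times its mean in 2i + LIF (log2 difference 1.70, SE 0.10). In both genes every PD + LIF sample was above every 2i + LIF sample, as in 44.4% of all genes tested.

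S100a6 was at 11.8 and 11.04 FPKM in wild-type ESCs in PD + LIF, 4.61 times the level in 2i + LIF (log2 difference 1.88, SE 0.20). S100a16, a widely expressed member, was at 2.57 and 2.02 FPKM against 0.454 and 0.469 FPKM in 2i + LIF (log2 difference 1.17, SE 0.22). S100a10 was at 109 and 97.0 FPKM, 1.65 times the level in 2i + LIF (log2 difference 0.71, SE 0.06). S100a11 stood apart from these genes, at 189.5 and 228 FPKM in PD + LIF, a range that holds both of its 2i + LIF samples (log2 difference -0.04, SE 0.08).

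Of the 6 members tested, 5 were called higher in PD + LIF in wild-type ESCs (limma, adjusted p below 0.05 over 15430 genes) and 0 lower (0 also at an unadjusted p below 0.05); the call that was not made is that of S100a11. Among all genes tested, 30.9% were called higher and 21.3% lower in this comparison.

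In Trincr1-/- ESCs, all 6 members tested were called higher in PD + LIF, against 29.6% of all genes higher and 20.3% lower. S100a6 was at 2.78 and 2.33 FPKM in 2i + LIF and at 24.5 and 24.0 FPKM in PD + LIF, 9.46 times higher (log2 difference 2.83, SE 0.20). S100a10 was at 67.0 and 64.5 FPKM in 2i + LIF and at 140.4 and 139.9 FPKM in PD + LIF, 2.13 times higher (log2 difference 1.08, SE 0.06). S100a11 was at 201 and 205 FPKM in 2i + LIF and at 259 and 255 FPKM in PD + LIF, 1.26 times higher (log2 difference 0.34, SE 0.08). In these 3 genes every PD + LIF sample was above every 2i + LIF sample, as in 43.3% of all genes tested.

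S100a13 and S100a1 differed less between media in Trincr1-/- than in wild-type ESCs. S100a13 was at 6.11 and 7.65 FPKM in 2i + LIF and at 11.3 and 12.8 FPKM in PD + LIF, a ratio of 1.75 (log2 difference 0.73, SE 0.12). S100a1 was at 3.40 FPKM in both samples in 2i + LIF and at 5.19 and 5.64 FPKM in PD + LIF, a ratio of 1.59 (log2 difference 0.54, SE 0.10). S100a16 was at 0.724 and 1.49 FPKM in 2i + LIF and at 2.65 and 3.93 FPKM in PD + LIF (log2 difference 1.03, SE 0.22).

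The call of S100a11 in Trincr1-/- ESCs was lost without sample 1 of Trincr1-/- in 2i + LIF or without sample 1 of Trincr1-/- in PD + LIF, which left 5 members called in each case. In wild-type ESCs, leaving out sample 2 in PD + LIF added a call of S100a11 as lower (log2 difference -0.17), which made 6.

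**Figure D2:**
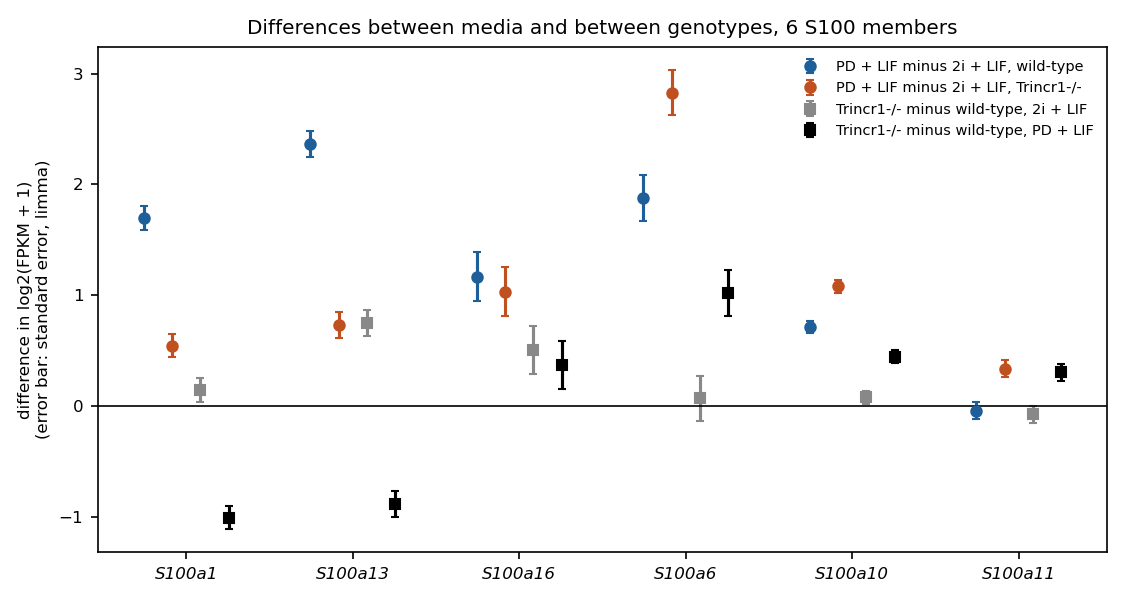
Differences in log2(FPKM + 1) (vertical axis) between media (circles) and between genotypes (squares) for 6 S100 members, with standard errors from limma, 2 samples per group. The medium differences of S100a1 and S100a13 are smaller in Trincr1-/- (0.54 and 0.73) than in wild-type ESCs (1.70 and 2.36), while those of S100a6 and S100a10 are 2.83 and 1.08 in Trincr1-/- against 1.88 and 0.71 in wild-type ESCs, a difference that was not called.

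Next, the genotypes were compared within each medium. In 2i + LIF the ratio of Trincr1-/- to wild-type was 1.14 for S100a1, 1.03 for S100a6, 1.06 for S100a10 and 0.950 for S100a11. The log2 difference of S100a6, 0.07, ranged from -0.27 to 0.42 with single samples left out. S100a13 stood apart, at 6.11 and 7.65 FPKM in Trincr1-/- against 3.49 and 3.86 FPKM in wild-type ESCs, 1.87 times higher (log2 difference 0.75, SE 0.12). S100a16 had a ratio of 2.40, at 0.724 and 1.49 FPKM against 0.454 and 0.469 FPKM (log2 difference 0.50, SE 0.22, not called). That difference was 0.24 without sample 2 and 0.77 without sample 1 of Trincr1-/- in 2i + LIF. In this comparison 1 of 6 members, S100a13, was called higher by limma and 0 lower (0 also at an unadjusted p below 0.05), against 0.35% of all genes higher and 0.855% lower. The call of S100a13 was lost without any 1 of the 8 samples, which leaves 3 residual degrees of freedom.

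In PD + LIF the members parted into 2 sets. S100a1 was at 5.19 and 5.64 FPKM in Trincr1-/- ESCs, 45.5% of its wild-type mean of 11.9 FPKM (log2 difference -1.01, SE 0.10). Its neighbor S100a13 was at 11.3 and 12.8 FPKM, 52.4% of its wild-type mean of 23.0 FPKM (log2 difference -0.88, SE 0.12). In both genes every Trincr1-/- sample was below every wild-type sample, as in 27.5% of all genes tested.

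S100a6, by contrast, was at 24.5 and 24.0 FPKM in Trincr1-/- ESCs, 2.12 times its wild-type level (log2 difference 1.02, SE 0.20). S100a10 was 1.36 times higher (140.2 ± 0.380 against 103 ± 8.11 FPKM, mean ± SD, n = 2 each; log2 difference 0.45, SE 0.06). S100a11 was 1.23 times higher (257 ± 3.04 against 209 ± 27.4 FPKM, mean ± SD, n = 2 each; log2 difference 0.30, SE 0.08), but the log2 difference was 0.17 without sample 1 of wild-type in PD + LIF. S100a16 was at 2.65 and 3.93 FPKM against 2.57 and 2.02 FPKM, with a log2 difference of 0.37 (SE 0.22) that was not called and was 0.15 without sample 2 and 0.59 without sample 1 of Trincr1-/- in that medium.

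Of the 6 members, 3 were called higher (S100a6, S100a10 and S100a11) and 2 lower (S100a1 and S100a13) in Trincr1-/- ESCs in PD + LIF, against 6.29% of all genes higher and 5.77% lower. The calls depended on single samples: 1 member remained without sample 1 of Trincr1-/- in PD + LIF (S100a1), 2 without sample 1 of wild-type in PD + LIF (S100a1 and S100a10) and 3 without sample 2 of Trincr1-/- in PD + LIF (S100a1, S100a10 and S100a13). Cd68, a lysosomal gene on the list of blood cell markers, had the same order of levels in PD + LIF as S100a1 and S100a13, with means of 12.9 FPKM in wild-type ESCs and 5.22 FPKM in those without Trincr1, and the other 3 genes of that list were at 0 in all samples. The sums of the fibroblast and endoderm markers given above had the order of S100a6, S100a10 and S100a11 in PD + LIF, but not every marker did. Thy1, the fibroblast marker with the highest mean there, was at 3.05 FPKM without Trincr1 against 3.38 FPKM with it. Gata4 was nearly equal, at 2.18 against 2.17 FPKM. Col1a2, Fbln2 and Dab2 were higher without Trincr1 but were not called. Between genotypes in that medium, Col1a1 was called higher without Trincr1, 1 of 4 fibroblast markers that passed the filter, as was Foxa2, 1 of 3 endoderm markers that did (log2 difference 0.90, SE 0.17, limma adjusted p = 0.0182). The part of these markers in the result was not tested.

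The difference between the genotype effects in the 2 media was then taken for each member. For S100a13, which was higher in Trincr1-/- ESCs in 2i + LIF and lower in PD + LIF, it was -1.63 (SE 0.16, log2 scale), and for S100a1 it was -1.15 (SE 0.15). For S100a6, S100a10, S100a11 and S100a16 it was 0.95 (SE 0.29), 0.37 (SE 0.08), 0.38 (SE 0.11) and -0.14 (SE 0.31), none of them called. That of S100a6 was 0.60 without sample 1 of wild-type in 2i + LIF, that of S100a11 was 0.24 without sample 1 of wild-type in PD + LIF, and that of S100a16 changed sign without sample 2 of Trincr1-/- in 2i + LIF or sample 1 of Trincr1-/- in PD + LIF. Thus 2 of 6 members were called lower by limma and 0 higher (3 at an unadjusted p below 0.05), against 0.817% of all genes lower and 0.992% higher. Without sample 1 of Trincr1-/- in 2i + LIF only S100a13 was called, and without any other single sample 0 members were.

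Between media, and between genotypes in PD + LIF, the proportions of S100a1 and S100a13 shifted less than their levels. Between genotypes in 2i + LIF the proportion shifted more than the S100a1 level, which was 1.14 times that of wild-type ESCs. The ratio of the S100a13 level to the S100a1 level was 1.29 and 1.18 in wild-type ESCs in 2i + LIF, 1.80 and 2.25 in Trincr1-/- ESCs in 2i + LIF, 1.97 and 1.90 in wild-type ESCs in PD + LIF, and 2.18 and 2.28 in Trincr1-/- ESCs in PD + LIF. It was lowest in the wild-type samples in 2i + LIF, where both genes were lowest. A RefSeq gene model of S100a13 begins at position 90514233 and overlaps S100a1 by 98 bases, and whether the libraries kept the strand is not given in the sources used here, so fragments from that stretch cannot be assigned to 1 of the 2 genes.

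The proteins that S100 members bind were compared on a list of 20 partner genes, 16 of which passed the filter. In wild-type ESCs 7 were called higher and 4 lower in PD + LIF, in Trincr1-/- ESCs 9 higher and 4 lower. Of all genes tested, 30.9% were called higher and 21.3% lower in wild-type ESCs, and 29.6% and 20.3% in Trincr1-/- ESCs. Trincr1-/- ESCs had 1 partner higher and 0 lower in 2i + LIF by limma (5 and 1 at an unadjusted p below 0.05), and 6 higher and 3 lower in PD + LIF. The shares of all genes were 0.35% higher and 0.855% lower in 2i + LIF, and 6.29% and 5.77% in PD + LIF. The median log2 difference of the partners in PD + LIF between genotypes was 0.09, against 0.01 over all genes.

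Anxa2, which encodes annexin A2, the subunit that pairs with S100A10, rose with medium and with genotype. It was at 7.61 and 7.39 FPKM in wild-type and 11.9 and 12.97 FPKM in Trincr1-/- ESCs in 2i + LIF, and at 32.6 and 36.2 FPKM in wild-type and 89.1 and 84.0 FPKM in Trincr1-/- ESCs in PD + LIF. Between genotypes the log2 difference was 0.66 in 2i + LIF (SE 0.07, limma adjusted p = 0.0113) and 1.31 in PD + LIF (SE 0.07, adjusted p = 0.000906). The medium difference in wild-type ESCs was 2.06 (SE 0.07, adjusted p = 5.41e-06). The genotype call in 2i + LIF was lost without either wild-type sample or without sample 2 of Trincr1-/- in that medium (adjusted p from 0.0764 to 0.0873).

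The Anxa2 level was a larger share of the S100a10 level in PD + LIF. The ratio of the Anxa2 level to the S100a10 level was 0.121 and 0.120 in wild-type and 0.178 and 0.201 in Trincr1-/- ESCs in 2i + LIF. In PD + LIF it was 0.300 and 0.373 in wild-type and 0.635 and 0.600 in Trincr1-/- ESCs. The mRNA of S100a10 was above that of Anxa2 in all 8 samples.

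Ahnak, a giant scaffold protein that binds the complex of annexin A2 and S100A10, differed in another way. It was at 14.3 and 13.7 FPKM in wild-type ESCs in 2i + LIF and at 9.70 and 9.77 FPKM in PD + LIF, so it fell with medium (log2 difference -0.48, SE 0.07, limma adjusted p = 0.00138), whereas the Trincr1-/- samples were at 15.1 to 18.1 FPKM in both media. In PD + LIF it was higher in Trincr1-/- ESCs by 0.78 (SE 0.07, adjusted p = 0.00279).

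Anxa1, which encodes a partner of S100A11, was at 2.49 and 2.80 FPKM in wild-type and at 9.03 and 7.90 FPKM in Trincr1-/- ESCs in PD + LIF (log2 difference 1.38, SE 0.15, limma adjusted p = 0.00367). Fgf1, whose product leaves cells in a complex with S100A13, had the order of S100a13 in PD + LIF at a low level: 1.42 and 2.35 FPKM in wild-type against 0.648 and 0.702 FPKM in Trincr1-/- ESCs (log2 difference -0.76, SE 0.17, adjusted p = 0.0318). The call of Fgf1 was lost without any single sample other than sample 1 of wild-type in PD + LIF (adjusted p from 0.0514 to 0.145). In 2i + LIF Fgf1 was at 0.110 FPKM or less in all 4 samples. Myh9, the non-muscle myosin that S100A4 binds, was at 54.8 and 55.6 FPKM in wild-type ESCs in 2i + LIF and rose to 113.7 and 114 FPKM in PD + LIF (log2 difference 1.03, SE 0.05, adjusted p = 8.71e-06).

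**Figure D3:**
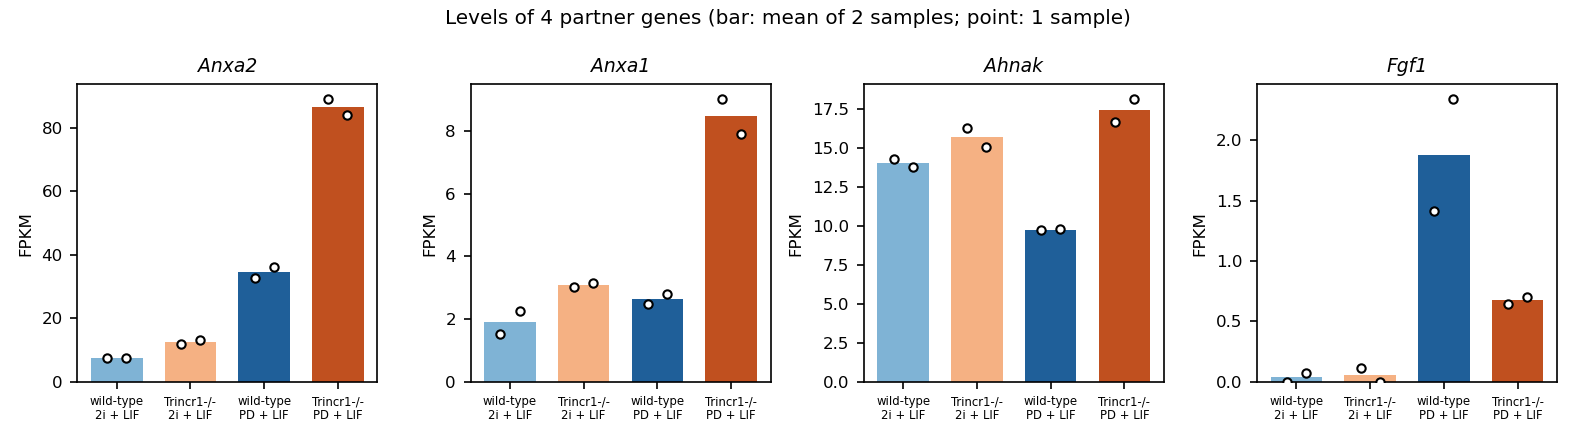
FPKM (vertical axis, a separate scale in each panel) of 4 genes whose products bind S100 proteins, in the 4 groups of ESCs; a bar is the mean of 2 samples and each point is 1 sample. Anxa2, Anxa1 and Ahnak were highest in Trincr1-/- ESCs in PD + LIF, at 86.5, 8.47 and 17.4 FPKM on average, and Fgf1 was highest in wild-type ESCs in PD + LIF, at 1.88 FPKM.

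Of the 12 annexins, the membrane-binding proteins that are the best known targets of the family, 10 passed the filter. In PD + LIF 7 were called higher and 0 lower in wild-type ESCs by limma, and likewise 7 and 0 in Trincr1-/- ESCs, with 0 lower also at an unadjusted p below 0.05. Of all genes tested, 30.9% were called higher and 21.3% lower in wild-type ESCs, and 29.6% and 20.3% in Trincr1-/- ESCs. Between genotypes, 1 annexin (Anxa2) was called higher and 0 lower in 2i + LIF (5 and 0 at an unadjusted p below 0.05). In PD + LIF 4 were called higher in Trincr1-/- ESCs (Anxa1, Anxa2, Anxa3 and Anxa4) and 1 lower (Anxa8). The shares of all genes were 0.35% higher and 0.855% lower in 2i + LIF, and 6.29% and 5.77% in PD + LIF. Anxa3 rose from 0.837 to 5.26 FPKM between media in wild-type ESCs (means, log2 difference 1.76, SE 0.14) and was at 12.2 FPKM in Trincr1-/- ESCs in PD + LIF (log2 difference between genotypes 1.08, SE 0.14). Anxa8 rose from 0.869 to 5.27 FPKM in wild-type ESCs (log2 difference 1.74, SE 0.14) but was at 2.80 FPKM in Trincr1-/- ESCs in PD + LIF (log2 difference between genotypes -0.72, SE 0.14), the order of S100a1 and S100a13. The genotype call in PD + LIF was lost for Anxa8 without any 1 of the 4 PD + LIF samples (adjusted p from 0.0629 to 0.109), for Anxa4 without any 1 of the 8 samples (adjusted p from 0.0554 to 0.183) and for Anxa3 without sample 1 of Trincr1-/- in PD + LIF (adjusted p = 0.0615).

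Genes of other calcium-binding EF-hand proteins were called in both directions between media, as were all genes tested. Of the 28 genes on the list, 24 passed the filter, and 9 were called higher and 9 lower in PD + LIF in both wild-type and Trincr1-/- ESCs. The shares of all genes were 30.9% higher and 21.3% lower in wild-type ESCs, and 29.6% and 20.3% in Trincr1-/- ESCs. The calpain subunit gene Capn2 rose from 1.22 to 8.14 FPKM in wild-type ESCs (log2 difference 2.04, SE 0.12) and was at 15.8 FPKM in Trincr1-/- ESCs in PD + LIF (log2 difference between genotypes 0.88, SE 0.12). Calb2, which encodes calretinin, fell from 8.24 to 0.152 FPKM in wild-type ESCs (log2 difference -3.01, SE 0.13). Efhd2 rose from 7.83 to 24.2 FPKM (log2 difference 1.51, SE 0.08). Between genotypes, 0 were called higher and 1 lower (Calb2) by limma in 2i + LIF (5 and 5 at an unadjusted p below 0.05), and 5 higher and 1 lower in PD + LIF (8 and 1 at an unadjusted p below 0.05), where Rcn2 rose by 0.48 (SE 0.08) and Efhd1 differed by 0.47 (SE 0.15) without passing the test. Among all genes, 0.35% were called higher and 0.855% lower in 2i + LIF, and 6.29% and 5.77% in PD + LIF. The call of Capn2 was lost without sample 1 of either genotype in PD + LIF (adjusted p of 0.0566 and 0.0663), that of Rcn2 without either of these or sample 2 of Trincr1-/- in PD + LIF (adjusted p from 0.0664 to 0.0870), and that of Calb2 in 2i + LIF without any 1 sample other than those of wild-type in PD + LIF (adjusted p from 0.0521 to 0.132).

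The nearest genes outside the family that passed the filter were 8 in number, Snapin, Chtop, Gm9774 and Gm4202 around the first group of members and Flg, Tchh, Them4 and Them5 around the second. Several were far away. From the nearest member of the first group, Snapin lay 20001, Gm9774 1813652 and Gm4202 2075011 bases away. From that of the second, Tchh lay 71411, Flg 226797, Them4 745446 and Them5 777456 bases away. In PD + LIF 0 of 8 were called higher by limma (0 also at an unadjusted p below 0.05) and 2 lower in wild-type ESCs, Chtop (log2 difference -0.43, SE 0.05) and Tchh (log2 difference -0.57, SE 0.11, at levels below 1 FPKM). In Trincr1-/- ESCs 0 were called higher (1 at an unadjusted p below 0.05) and 3 lower. Among all genes, 30.9% were called higher and 21.3% lower in wild-type ESCs, and 29.6% and 20.3% in Trincr1-/- ESCs. Chtop, an RNA export factor, lies 1536 bases from S100a1, and its means in PD + LIF were 74.6 FPKM in wild-type ESCs and 75.8 FPKM without Trincr1. Between genotypes 0 of 8 neighbors were called by limma in either medium (1 in each at an unadjusted p below 0.05), with log2 differences in PD + LIF of -0.43 for Flg, -0.43 for Gm9774 and -0.15 for Them4, all at low levels. Of all genes, 0.35% were called higher and 0.855% lower in 2i + LIF, and 6.29% and 5.77% in PD + LIF. With such shares, 0 calls among 8 genes do not set the neighbors apart from other genes.

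**Figure D4:**
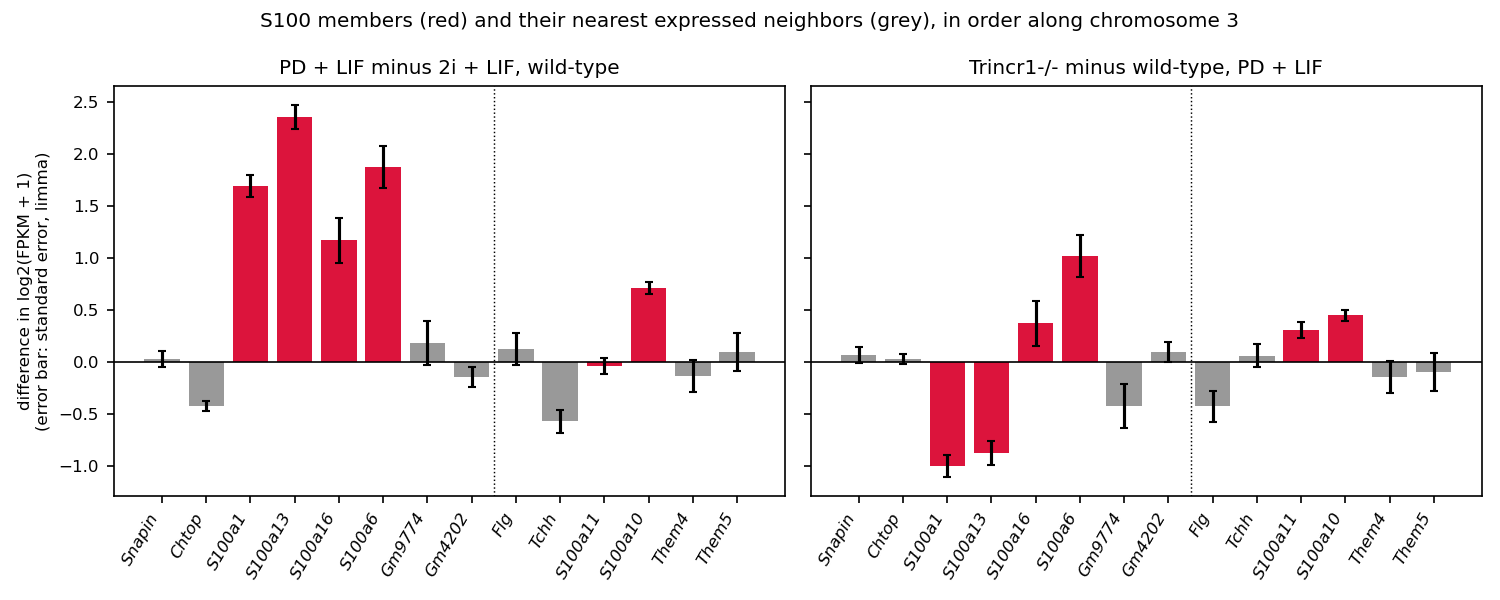
Differences in log2(FPKM + 1) (vertical axis) with standard errors from limma for 6 S100 members (red) and 8 neighboring genes outside the family (grey), in their order along chromosome 3, with a dotted line where the 2 groups of members are parted; left, between media in wild-type ESCs, and right, between genotypes in PD + LIF. S100a1 and S100a13 reach 1.70 and 2.36 on the left and -1.01 and -0.88 on the right, where the neighbor Chtop is at -0.43 and 0.02. Gm9774, Gm4202, Them4 and Them5 lie 745446 bases or more from every member of the group they stand beside.

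Of the 10 other S100 family genes in the table, 5 were at 0 in all samples and 2 passed the filter, S100a14 and S100z. Their means of 0.274 and 0.257 FPKM are above the 0.143 FPKM of the member S100a4, so the counts of members depend on which genes were chosen. S100a14 was at 0.469 and 0.0942 FPKM in wild-type and 0.652 and 0.776 FPKM in Trincr1-/- ESCs in 2i + LIF, at 0 in both wild-type samples in PD + LIF, and at 0.0967 and 0.105 FPKM in Trincr1-/- ESCs in PD + LIF. Its fall between media passed the test in Trincr1-/- ESCs (log2 difference -0.64, SE 0.16, limma adjusted p = 0.0124), the opposite direction to that of the 6 members. S100z was at 1.03 FPKM in 1 wild-type and 1 Trincr1-/- sample in PD + LIF and at 0 in the other 6 samples. S100pbp, which encodes a nuclear protein that binds S100P and is no family member, was at 20.2 to 27.0 FPKM and was not called in any comparison.

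RNAs bound by TRIM71 were sampled by immunoprecipitation (IP) with a FLAG antibody from ESCs that overexpressed FLAG-tagged TRIM71, and a single FPKM value for each transcript is given in the IP and in the input, so no error and no test can be had. TRIM71 is an RNA-binding ubiquitin ligase, and this measurement took no part in the choice of the members. In the input S100a11 was at 96.7, S100a10 at 77.8, S100a1 at 67.9, S100a13 at 53.6, S100a6 at 8.60 and S100a16 at 4.20 FPKM, while S100a4 is not listed. In the IP S100a10 was at 10.8 FPKM, or 24.1 FPKM after the deposited scaling, and the other 5 were listed at 0.

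The ratio of scaled IP to input was 0.310 for S100a10. Of the 6 members with an input above 2 FPKM, 0 had a ratio above 3, against 5.1% of the 9651 transcripts with such an input. A value of 0 in the IP was common: of transcripts with an input within 1.5 times that of the member, 14.1% were at 0 around S100a11, 21.4% around S100a1, 24.7% around S100a13, 55.5% around S100a6 and 67.6% around S100a16. Among those with a coding transcript of 400 to 1200 bases, the share at 0 was 22.4% around S100a11 and 36.2% around S100a1. Of the partner genes listed, only Myh9 had a ratio above 3, at 6.71 (input 40.8 FPKM), and every other was at 0.989 or less. Among these, Anxa2 was listed at 0 in the IP with an input of 5.20 FPKM.

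Lastly, genes with a pattern like that of each member were looked up among those with a mean of at least 5 FPKM, by the root mean square (RMS) of the difference between log2(FPKM + 1) values of the 8 samples, each centered on the gene's own mean. The closest to S100a1 were Fabp3-ps1 (RMS 0.15), Dcaf4 (0.17) and Sdc4 (0.19), and to S100a13 Fabp3 (0.19), Fabp3-ps1 (0.21) and Ifitm1 (0.22). Fabp3-ps1 is named as a pseudogene of Fabp3, so its value is uncertain where both share reads. Closest to S100a6 were Car2 (0.20), Prmt2 (0.20) and Fzd2 (0.22), to S100a10 Itga5, Vamp3 and Pja1 (0.06 each), to S100a11 Fkbp1a (0.05), Sqle (0.06) and Glrx5 (0.06), and to S100a16 Hspg2, Map1b and Cul7 (0.19 each). Fabp3, a fatty acid carrier, was at 76.7 and 76.4 FPKM in wild-type and 93.2 and 105 FPKM in Trincr1-/- ESCs in 2i + LIF, and at 422 and 392 FPKM in wild-type and 209 and 251 FPKM in Trincr1-/- ESCs in PD + LIF.

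Among the members themselves, the smallest RMS differences were those between S100a10 and S100a16 (0.26) and between S100a1 and S100a13 (0.31). The log2(FPKM + 1) scale understates changes of S100a16, which was at 0.454 to 3.93 FPKM, so its likeness to S100a10 and to other genes depends on that scale. As a ratio of FPKM means between media in wild-type ESCs, S100a16 was at 4.98 and S100a10 at 1.65. Between genotypes in 2i + LIF these ratios were 2.40 and 1.06. The largest was that between S100a6 and S100a11 (1.15). S100a6 also varied most about its own mean (RMS 1.24) and S100a11 least (0.15).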

How the data were processed

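Poly(A) RNA of 8 ESC samples was aligned by the authors with STAR 2.5.0, and the authors deposited FPKM values per gene from Cufflinks 2.2.1, normalized for length and depth. The methods name mm9, but 76.5% of 20004 protein-coding genes lay within 1000 bases of RefSeq GRCm38.p6 at both ends and 5.14% of 20540 did for NCBIM37, so coordinates are given as GRCm38. For the FLAG-TRIM71 IP and its input, the authors deposited 1 FPKM value per transcript, also scaled. A deposited fold of enrichment holds the authors' comparison and was not used, nor was the IP with an empty vector. The sample labels give 2 replicates of IP and input, which the table does not separate, and its depth is unknown.

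Genes with a mean above 0.2 FPKM were compared as log2(FPKM + 1) with limma 3.58.1 (R 4.3.3), all 4 groups in 1 fit with a variance trend and 4 residual degrees of freedom. P-values were adjusted by Benjamini-Hochberg over 15430 genes, with a threshold of 0.05. A log2 difference on this scale understates the change of low genes. Replicates are described as biological. Where sources do not tell separate cultures, p-values cover only the spread between samples. Depth was read from the spacing of low FPKM values, which are whole multiples of 1 fragment. Transcript lengths come from GENCODE M1 (NCBIM37) by gene identifier. For 39 identifiers with several entries the highest was kept. Python 3.11.15 with pandas 2.3.3 handled tables, and the fit was tested on simulated data.

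The members and gene lists were chosen with earlier results of these data known. Named were all members and other S100 genes, the 3 genes per list with the largest difference between media in wild-type ESCs and between genotypes in PD + LIF, other list genes past the threshold, and the 3 genes most like each member. Alternatives covered the pseudocount, filter, scaling, variance model, samples fitted, replicate block, single samples left out and scaling of the IP.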

Additional observations from a re-analysis of the deposited data

Results flagged for a closer look

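The genotype effect differed between media past the threshold of limma's interaction test for 2 members of the S100 family, with values that are a description because the members were chosen on these samples. The difference (effect in PD + LIF minus effect in 2i + LIF, log2 scale) was -1.15 for S100a1 and -1.63 for S100a13. Among genes of the partner, annexin and other EF-hand lists, it was 0.65 for Anxa2 (adjusted p = 0.0372), 0.62 for Ahnak (adjusted p = 0.0389), 1.28 for Capn2 (adjusted p = 0.0277) and 1.25 for Calb2 (adjusted p = 0.0331), each from 2 samples per group. For Calb2 the value rests on a level of 0.329 FPKM or less in PD + LIF. The call of each of these 4 genes was lost without any 1 of the 8 samples, with adjusted p from 0.0678 to 0.141 for Anxa2, 0.0864 to 0.126 for Ahnak, 0.0632 to 0.113 for Capn2 and 0.0851 to 0.125 for Calb2.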

How the results depend on the processing

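Each alternative changed 1 choice. Counts of members called between media kept within 1.5 times of their value in every alternative (7 in Trincr1-/- ESCs with no filter, where S100a4 is tested and called). Of 474 recomputed member values, 421 kept their side of the threshold, 52 lost a call, 1 gained one and 0 were called in the opposite direction. The 421 include values not called that changed sign, such as that of S100a6 between genotypes in 2i + LIF (-0.27 to 0.42). The member called between genotypes in 2i + LIF was lost, leaving 0, with no filter, no variance trend, only the 4 samples of the contrast, and any single sample left out (0 to 0). The 5 members called between genotypes in PD + LIF became 3 with a pseudocount of 0.1, no filter or only 4 samples, and 1 to 4 with single samples left out; the call of S100a11 was kept in 3 of 16 alternatives. The 2 members whose genotype effect differed between media became 0 to 1 with single samples left out. Of the 4 list genes with such a difference, 2 remained in number with a pseudocount of 0.1 or no variance trend, and 0 with no filter, the replicate block or any single sample left out (0 to 0). The 2 list genes called between genotypes in 2i + LIF became 1 with a pseudocount of 0.1 or no filter, 0 with only 4 samples and 0 to 2 with single samples left out, and the 18 in PD + LIF became 11 with no variance trend, 4 with only 4 samples and 3 to 15. The cause was not tested, except that fewer samples leave fewer degrees of freedom. Calu reversed between media in wild-type ESCs with quantile normalization (0.13). That scaling moved the median of all genes between media in Trincr1-/- ESCs from 0.07 to -0.03. With the replicate block, 1 member had a genotype effect called as different between media and 4 were called between genotypes in PD + LIF; replicate deviations of the groups correlated between -0.05 and 0.01, so the numbers do not pair samples. The IP count of 0 held in both other scalings.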

Other observations

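S100a1, S100a13 and S100a16 stood higher in the input of the pulldown than in all 8 RNA-seq samples, relative to S100a10. In the input the S100a1 level was 0.873 times and the S100a13 level 0.689 times that of S100a10. In the 2 wild-type samples in 2i + LIF the ratios were 0.0429 and 0.0532 for S100a1 and 0.0554 and 0.0627 for S100a13, and over all 8 samples they were at most 0.123 and 0.233. The S100a16 level was 0.0540 times that of S100a10 in the input, 0.00721 and 0.00762 times in those wild-type samples and at most 0.0281 times over all 8. For S100a6 the ratio was 0.111 in the input, above the 0.0524 and 0.0271 of the wild-type samples in 2i + LIF but below the 0.174 and 0.171 of the Trincr1-/- samples in PD + LIF. S100a11, at 1.24 times S100a10 in the input, was at 3.46 and 3.42 times in the wild-type samples in 2i + LIF. The libraries were also made in different ways. By the paper's methods, total RNA for RNA-seq was purified on poly-T beads, while RNA of the IP experiment went straight into cDNA synthesis. Whether the latter covers the input is not stated. The tables were made separately, the labels do not state from which ESCs the input came, and the cause was not tested.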
